A study of Mus musculus with 3 samples.

Results

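Heart expression was described for 10 genes, the matricellular proteins Ccn1, Ccn2, Ccn3, Ccn4 and Ccn5 and the YAP pathway genes Yap1, Wwtr1, Tead1, Lats2 and Amotl2, out of 19505 genes measured. They are a gene family and a pathway that were picked with the log2 values of these arrays in view. They count as chosen by those values on all 3 arrays, without a cut-off, and every value below is a description without a test. All 10 were found on the arrays, each with 1 probe set that names this gene alone. The samples were 3 arrays of heart RNA from wild-type C57BL/6 mice, all labelled male, with 1 array per group. The labels give an age of 10 weeks, and the methods name a younger age when the mice were obtained. Treatment alone took 12 weeks, so the hearts were older than 10 weeks when taken. The AAC + DAPA group had abdominal aortic constriction (AAC), a ligature on the abdominal aorta that loads the left ventricle with pressure, and then received dapagliflozin, which blocks the renal glucose transporter SGLT2, by drinking water for 12 weeks (25 mg/kg daily). The AAC group had the ligature and saline. The sham group had the operation with the silk taken out unligated, and saline. Neither the labels nor the methods say which part of the heart was taken, or whether RNA of several mice was pooled.

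CCN proteins are secreted into the matrix around cells, where they bind integrins, proteoglycans and growth factors and alter how cells adhere, divide and lay down collagen. YAP (gene Yap1) and TAZ (gene Wwtr1) are co-activators that carry no DNA-binding domain of their own and act through TEAD factors. The Hippo kinases LATS1 and LATS2 phosphorylate YAP and TAZ and keep them out of the nucleus, and mechanical tension releases them. Ccn1 and Ccn2 are classical YAP and TEAD targets, and in the heart CCN2 is known as a marker of pressure load and fibrosis. Lats2 and Amotl2 are targets as well as inhibitors of YAP, so that they form a negative feedback.

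TEAD factors bind the letters GGAATG, known in muscle genes as the MCAT element. This motif was searched on both strands in RefSeq promoter windows of 300 bases (build GRCm38.p6), and 5 of the 10 genes matched an entry, namely Amotl2, Ccn1, Lats2, Wwtr1 and Yap1. All 5 held the motif in at least 1 window, against 16.6% of 27025 genes with a window. Within the 250 bases before the start it stood in 4 of 5, without Lats2, against 14.4% of genes. The AP-1 motif TGANTCA was in 0 of the 5, against 8.97% of genes. The promoters of Amotl2 and Ccn1 are shown because both are YAP targets with a single TEAD motif in the 250 bases before their start, while their values on the arrays differed in pattern. Capitals mark CATTCC, which is GGAATG on the other strand. It ends 60 bases before the start of Amotl2 (chr9:102717554-102717803, plus strand) and 98 bases before the start of Ccn1 (chr3:145649986-145650235, minus strand).
Amotl2: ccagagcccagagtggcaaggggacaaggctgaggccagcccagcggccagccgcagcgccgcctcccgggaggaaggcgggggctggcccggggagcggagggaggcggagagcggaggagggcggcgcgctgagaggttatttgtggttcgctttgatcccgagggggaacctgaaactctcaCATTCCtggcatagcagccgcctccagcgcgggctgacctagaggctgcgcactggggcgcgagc
Ccn1: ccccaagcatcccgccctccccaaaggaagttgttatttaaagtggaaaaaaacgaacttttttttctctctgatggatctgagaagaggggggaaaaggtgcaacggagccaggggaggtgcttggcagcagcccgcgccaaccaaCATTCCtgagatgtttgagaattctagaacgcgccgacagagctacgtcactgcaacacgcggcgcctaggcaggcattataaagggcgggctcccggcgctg
Yap1 held GGAATG 141 to 136 bases before its start, and both Wwtr1 windows, which overlap, held the same copy. A match of letters does not show that TEAD is bound there.

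The values are log2 expression values deposited after normalization, to 2 decimals, between 2.24 and 19.93. A gene was called higher or lower once 2 arrays differed by 1.5-fold or more, the level the study used. Single arrays give no replicate error, and no test was possible. Differences between probe sets of the same gene give a partial yardstick, with an SD of 0.26 (log2) for AAC + DAPA minus AAC, 0.31 for AAC minus sham and 0.19 for AAC + DAPA minus sham over 55 genes. None of the 10 genes is among those 55, and this SD holds no difference between mice. The table repeats values, since 14.9% of all genes, and 9.27% of those above the median level, carried an equal value on all 3 arrays. On at least 2 arrays 52.2% of all genes and 39.9% of those above the median level were equal, and between AAC + DAPA and sham 31.1% of all genes. How these equal values arose was not tested. Cardiomyocyte markers such as Myh6 and Tnnt2 stood between 15.17 and 19.93 on all 3 arrays, as the label heart implies. The sex label was not borne out alike on the arrays. The Y-linked gene Eif2s3y stood at 2.72 in AAC + DAPA, 11.71 in AAC and 2.50 in sham. Uty followed the same pattern, at 2.96 in AAC + DAPA, 10.65 in AAC and 3.09 in sham. Since all 3 arrays are labelled male, the low values in AAC + DAPA and sham are those at odds with the label. Every difference from the AAC array cannot be told apart from this one. AAC + DAPA against sham leaves the AAC array out, but it is made of the 2 arrays at odds with their sex label.

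Ccn2, formerly connective tissue growth factor, differed most among the 10 genes. Its log2 value was 9.91 in AAC + DAPA, 8.27 in AAC and 7.31 in sham. The AAC + DAPA array was thus the highest and the sham array the lowest, with AAC between them. Compared with AAC, Ccn2 was 3.12-fold higher in AAC + DAPA (1.64 in log2), a rise reached by only 29 of the 19505 genes, Ccn2 included. Compared with sham it was 6.06-fold higher in AAC + DAPA (2.60), a rise reached by 13 genes. AAC alone stood 1.95-fold above sham (0.96), a difference reached by 306 genes. Both steps passed 1.5-fold for Ccn2 and 22 other genes, 0.118% of all. They shared the AAC array, and an error on it would lower one step as it raised the other, while the difference between AAC + DAPA and sham would stay.

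**Figure D1:**
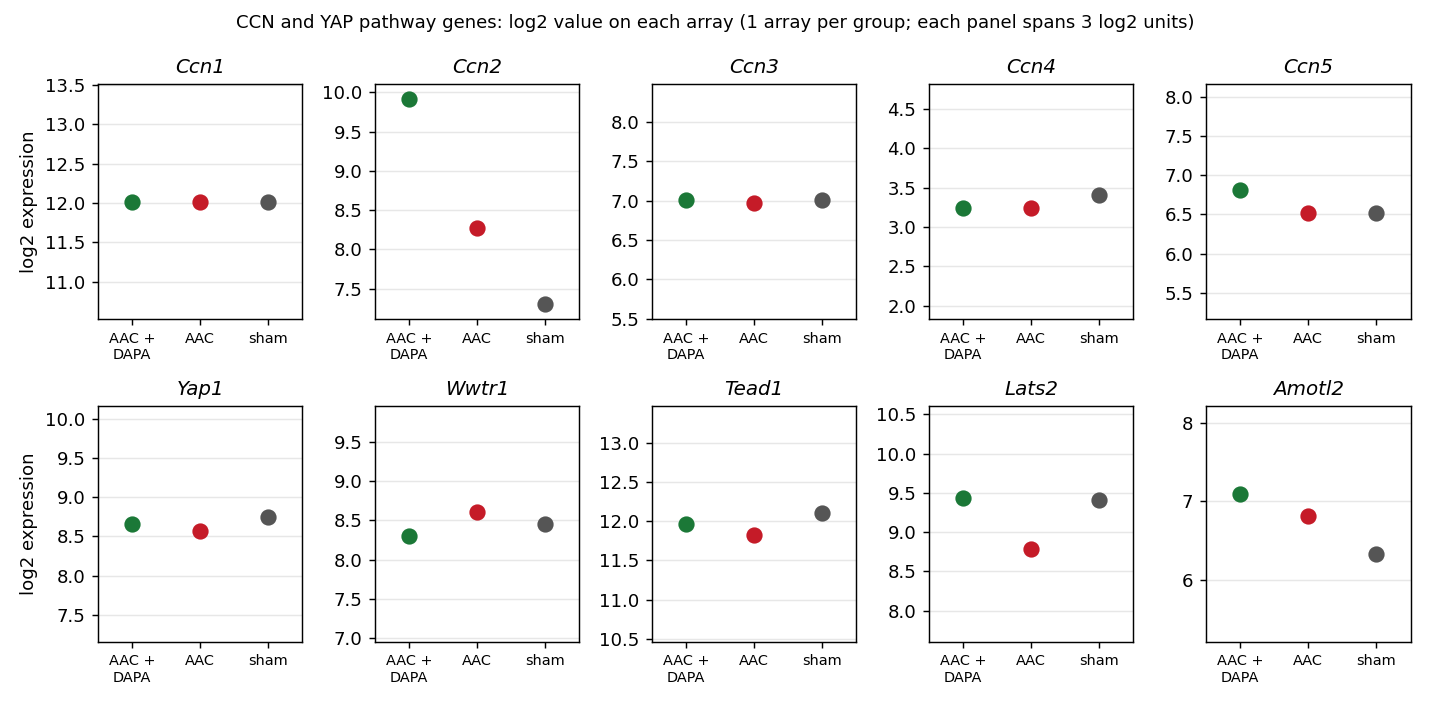
Log2 expression of the 10 genes on each array, with 1 point per array (AAC + DAPA, AAC and sham from left to right) and the same span of log2 units in each panel. Ccn2 stands at 9.91, 8.27 and 7.31 on these arrays, Lats2 is lowest in AAC at 8.78, and Ccn1 carries 12.02 on all 3.

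The other CCN genes differed little. Ccn1, the former Cyr61 and the other classical YAP target of the family, read 12.02 in AAC + DAPA, 12.02 in AAC and 12.02 in sham. It was thus one of the genes with a single repeated value, and its flat line is to be read with that in mind. Ccn3, the former Nov, which in several cell types opposes CCN2, was at 7.01 in AAC + DAPA, 6.97 in AAC and 7.01 in sham, a spread of 0.04. Ccn5, the former Wisp2, which lacks the C-terminal cystine knot of its relatives and is known to restrain smooth muscle growth, was at 6.81 in AAC + DAPA, 6.52 in AAC and 6.52 in sham. Its difference of 0.29 in AAC + DAPA from both other arrays, 1.22-fold, stayed below the threshold. Ccn4, the former Wisp1, a WNT-induced member, had 3.24 in AAC + DAPA, 3.24 in AAC and 3.41 in sham. These values lay under the 25th percentile of each array (3.81, 3.85 and 3.81), so that little can be read from them. Ccn6, which completes the family, was lower still, at 2.74 in AAC + DAPA, 2.97 in AAC and 2.96 in sham. Of the 6 CCN genes, Ccn2 was the only one past 1.5-fold in any of the 3 comparisons. Over all genes, 8.34% passed it in AAC + DAPA against AAC, 6.6% in AAC + DAPA against sham and 9.86% in AAC against sham.

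The co-activators and their main DNA-binding partner stayed within 1.5-fold on every array. Yap1 read 8.66 in AAC + DAPA, 8.57 in AAC and 8.75 in sham, which left at most 0.18 between any pair. Wwtr1, which encodes TAZ, read 8.30 in AAC + DAPA, 8.61 in AAC and 8.45 in sham. It was highest in AAC, and AAC + DAPA differed from AAC by −0.31. Tead1, the TEAD factor best known from cardiac muscle, read 11.96 in AAC + DAPA, 11.82 in AAC and 12.11 in sham. It was lowest in AAC, by 0.29 from sham. These differences are near the spread between probe sets of the same gene. The RNA level says nothing of where the YAP and TAZ proteins were in the cell, which is how Hippo signaling controls them.

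Both inhibitors that are also YAP targets passed the threshold, in different comparisons. Lats2, the kinase that inactivates YAP and TAZ, read 9.43 in AAC + DAPA, 8.78 in AAC and 9.41 in sham. AAC was the low array, and the other arrays lay 0.02 apart. In AAC + DAPA it was 1.57-fold above AAC (0.65), and in AAC it was 1.55-fold below sham (−0.63). Both calls rest on the AAC array and lie just past the threshold, and without that array there was no call. Amotl2, an angiomotin-like scaffold that binds YAP at cell junctions, read 7.09 in AAC + DAPA, 6.81 in AAC and 6.33 in sham. Its order was that of Ccn2 on a smaller scale. AAC + DAPA stood 1.69-fold above sham (0.76), a rise reached by 339 genes, while AAC + DAPA against AAC (0.28) and AAC against sham (0.48) stayed below 1.5-fold.

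**Figure D2:**
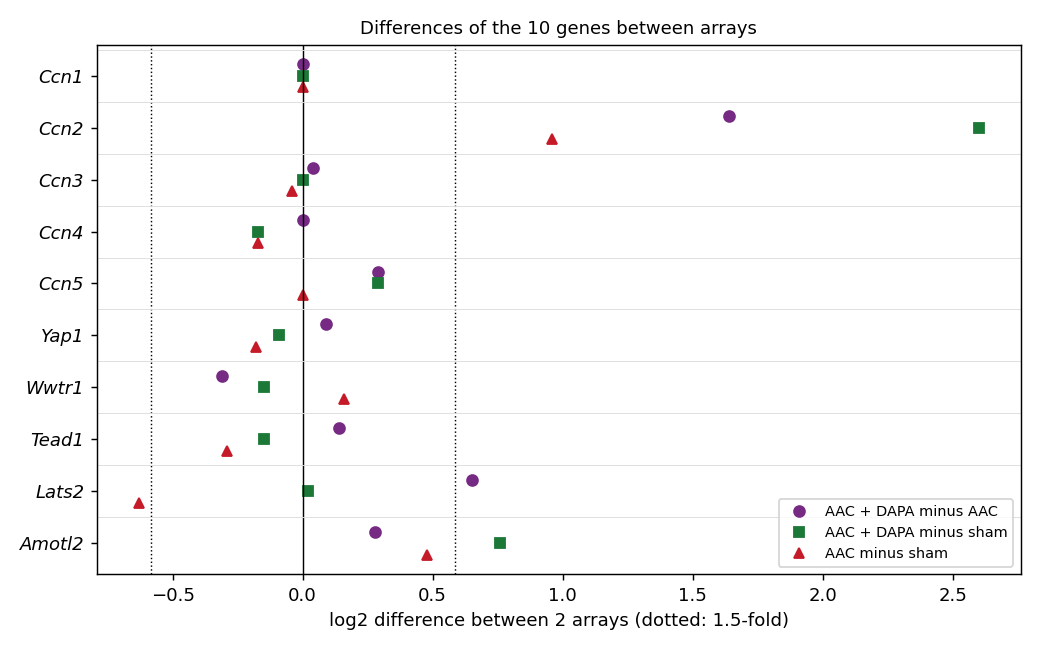
Log2 differences of the 10 genes between arrays, with circles for AAC + DAPA minus AAC, squares for AAC + DAPA minus sham and triangles for AAC minus sham, and dotted lines at 1.5-fold. Ccn2 lies to the right of the line in all 3 comparisons, Amotl2 in AAC + DAPA minus sham alone, and Lats2 lies at 0.65 and −0.63 in both comparisons with AAC and at 0.02 without it.

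Of the 10 genes, 2 were called in AAC + DAPA against AAC, Ccn2 and Lats2, both higher, where 8.34% of all genes were called. In AAC + DAPA against sham 2 were called, Ccn2 and Amotl2, both higher, against 6.6% of all genes. In AAC against sham 2 were called, Ccn2 higher and Lats2 lower, against 9.86%. The median difference of the 10 genes was 0.12 for AAC + DAPA against AAC, 0.00 for AAC + DAPA against sham and −0.02 for AAC against sham, and that of all genes was 0 in each. Since the genes were chosen with values known, nothing is read from these counts.

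Next, the RNA of 22 YAP and TAZ target genes common to many tissues was described. Of these, 4 are among the 10 genes, and all 22 were measured. In AAC + DAPA 7 were at least 1.5-fold higher than in sham and 0 were lower, against 3.22% and 3.38% of all genes. By any amount 18 of 22 lay above sham, where 6608 of all 19505 genes stood 0.01 or more above it. The median of the list was 0.30 (log2), beside 0 for all genes. Leaving out the 4 shared genes, 5 of 18 were higher and the median was again 0.30. Among genes above the median level, 7 of 19 targets were higher, against 5.03% of such genes. In AAC 6 of 22 were higher than in sham and 1, Lats2, was lower, against 4.88% and 4.98% of all genes, with a median of 0.14. Against AAC, 3 were higher in AAC + DAPA (Ccn2, Lats2 and Nt5e) and 0 were lower, beside 4.16% of all genes higher and 4.18% lower, with a median of 0.11. The list was chosen with earlier results of these data known, so nothing is read from its counts. The activity of YAP and TAZ was not tested.

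Ankrd1, a stress-induced ankyrin repeat protein of the cardiac nucleus and sarcomere, came next to Ccn2. It read 19.62 in AAC + DAPA, 19.20 in AAC and 17.05 in sham. It was 5.94-fold above sham in AAC + DAPA and 4.44-fold above sham in AAC, while AAC + DAPA and AAC were 0.42 apart near the top of the scale. The highest value in the table is 19.93. Nt5e, the ecto-enzyme CD73 that makes adenosine, read 6.56 in AAC + DAPA, 5.83 in AAC and 5.48 in sham, with AAC + DAPA 1.66-fold above AAC and 2.11-fold above sham. Igfbp3, a binding protein of insulin-like growth factors, read 6.03 in AAC + DAPA, 5.68 in AAC and 4.97 in sham. F3, the tissue factor that starts coagulation, read 8.56 in AAC + DAPA, 8.18 in AAC and 7.52 in sham. In these genes too AAC lay between the other arrays. Igfbp3 was 2.08-fold and F3 2.06-fold above sham in AAC + DAPA. Arhgef17 was 1.69-fold above sham in AAC + DAPA and 1.56-fold in AAC. Tgfb2, a TGF-β ligand, was 1.60-fold above sham in AAC and 1.42-fold in AAC + DAPA. At the other end, Ccn1, Fjx1 and Foxf2 carried 1 value on all 3 arrays. Of the 15 target genes with a promoter window, 7 held GGAATG (Amotl2, Ankrd1, Axl, Ccn1, Crim1, Lats2 and Ptpn14), which takes in the high Ankrd1 and the flat Ccn1 alike.

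**Figure D3:**
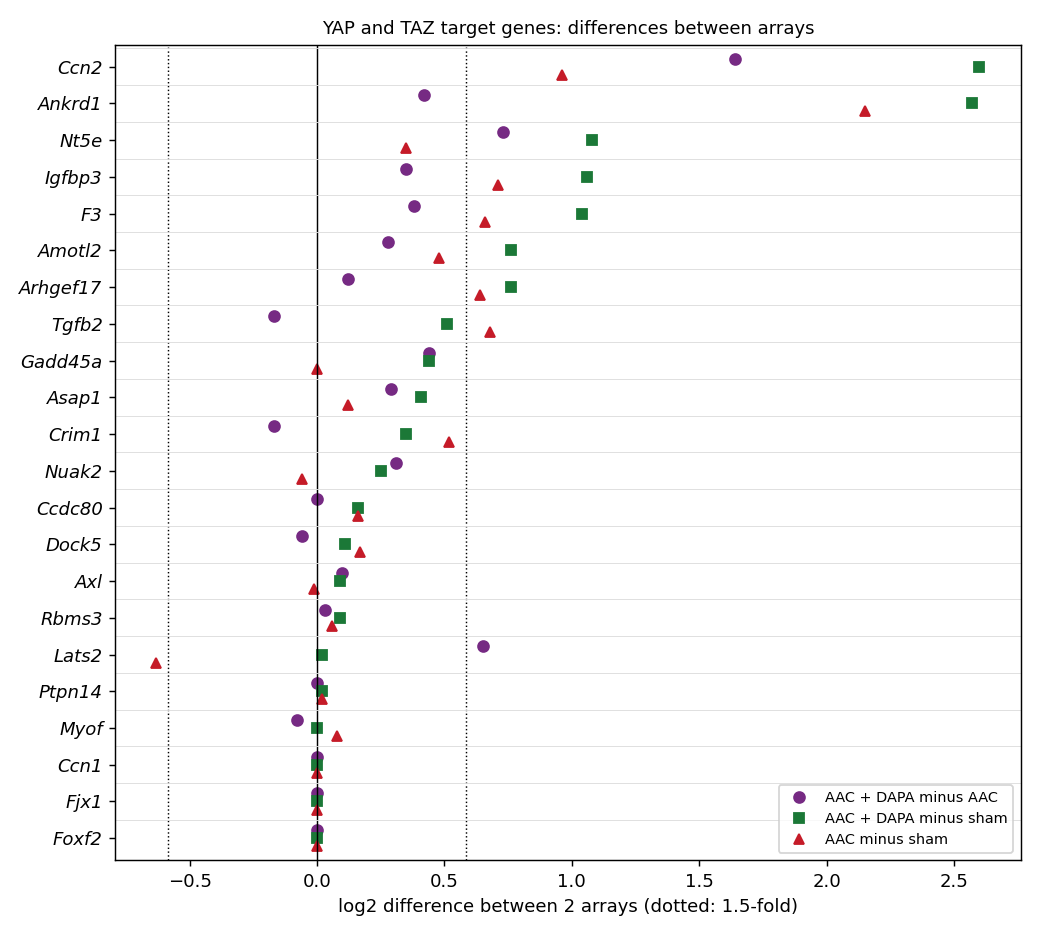
Log2 differences of 22 YAP and TAZ target genes between arrays, ordered by AAC + DAPA minus sham, with circles for AAC + DAPA minus AAC, squares for AAC + DAPA minus sham, triangles for AAC minus sham and dotted lines at 1.5-fold. The squares of 7 genes lie beyond the right line, Ccn2 (2.60) and Ankrd1 (2.57) furthest, and none lies beyond the left one.

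Among 26 measured genes of the Hippo kinases, their scaffolds and other inhibitors of YAP, 4 lay at least 1.5-fold below sham in AAC and 0 lay above it, against 4.98% and 4.88% of all genes. They were Stk4, the kinase MST1 at the head of the cascade (2.22-fold lower), Nf2, the tumor suppressor merlin (1.60-fold lower), Lats2 and the angiomotin Amotl1 (1.56-fold lower). Stk4 read 4.77 in AAC + DAPA, 4.06 in AAC and 5.21 in sham, and Nf2 10.08 in AAC + DAPA, 9.91 in AAC and 10.59 in sham. As with Lats2, AAC was the lowest array for both, and in AAC + DAPA against sham Stk4 (−0.44), Nf2 (−0.51) and Amotl1 (−0.33) stayed below 1.5-fold. Relative to AAC, 2 were higher in AAC + DAPA (Stk4 by 1.64-fold, and Lats2) and 1 was lower, where 4.16% of all genes were higher and 4.18% lower. The lower one was Mink1, a MAP4K kinase that can activate LATS, at 8.94 in AAC + DAPA, 9.92 in AAC and 9.90 in sham. Stk4 lay below the median of each array (5.23 in AAC + DAPA, 5.30 in AAC and 5.24 in sham). Among genes above the median level, 3 of 23 were lower in AAC than in sham, against 8.37% of such genes. Lats2 alone of 24 was then higher in AAC + DAPA than in AAC, against 6.05%. Against sham, AAC + DAPA had Amotl2 higher, and Mink1 (1.95-fold) and the related kinase Tnik (1.66-fold) lower, where 3.22% of all genes were higher and 3.38% lower. The counts in both comparisons with AAC + DAPA are near those shares, and the median of the list was 0 in all 3 comparisons. Of 10 factors of the YAP, TAZ, TEAD and Vestigial-like families, 1 passed 1.5-fold. This was Vgll3, a TEAD cofactor, at 7.53 in AAC + DAPA against 8.17 in AAC, 1.56-fold lower, with sham at 8.05. In that comparison 4.18% of all genes were lower. Centring each array on its median left 0 of the 10 past the threshold.

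CCN proteins signal through integrins and syndecans, and 15 such partner genes were measured. Relative to AAC, 2 were lower in AAC + DAPA, the laminin receptor chain Itga6 (2.03-fold) and the proteoglycan Sdc4 (1.80-fold), and 0 were higher, against 4.18% and 4.16% of all genes. Itga6 read 10.41 in AAC + DAPA, 11.43 in AAC and 10.35 in sham, and Sdc4 7.02 in AAC + DAPA, 7.87 in AAC and 7.22 in sham. Both were high on the AAC array alone, where they stood 2.11-fold and 1.57-fold above sham, and AAC + DAPA differed from sham by 0.06 and −0.20. Itgav, the αv chain that binds CCN1 and CCN2, read 10.37 in AAC + DAPA, 9.89 in AAC and 9.72 in sham, and was 1.57-fold above sham in AAC + DAPA. The medians of the partner list were −0.28 for AAC + DAPA against AAC, 0.00 for AAC + DAPA against sham and 0.17 for AAC against sham.

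Ccn2 is also induced by TGF-β and by serum response factor (SRF), and genes of these routes were set beside it. Whether either route acted on Ccn2 in these hearts was not tested. Of 16 measured TGF-β ligands and matrix genes, AAC + DAPA had 0 above sham and 1 below it, against 3.22% and 3.38% of all genes, with a median of −0.12. The lower one was the collagen chain Col3a1, at 8.62 in AAC + DAPA, 9.14 in AAC and 10.25 in sham, an order opposite to that of Ccn2. Relative to AAC, AAC + DAPA had 1 higher (Bgn, 1.52-fold) and 0 lower, against 4.16% and 4.18% of all genes. In AAC 1 was higher than in sham (Tgfb2) and 1 lower (Col3a1), against 4.88% and 4.98%. Postn, periostin, a matricellular protein of activated fibroblasts, read 9.80 in AAC + DAPA, 9.88 in AAC and 9.80 in sham. Of 13 targets of SRF and its co-activators 4 were lower in AAC + DAPA than in sham (3 after centring or quantile normalization, without Actb) and 0 were higher, against 3.38% of all genes lower, with smooth muscle actin Acta2 at 12.13 in AAC + DAPA, 10.08 in AAC and 15.25 in sham. Srf itself was 1.77-fold lower in AAC + DAPA than in sham. Relative to AAC, AAC + DAPA had 1 of the 13 higher (Acta2, 4.14-fold) and 1 lower (Flna, 1.78-fold), against 4.16% and 4.18% of all genes. In AAC 0 were higher than in sham and 4 were lower, against 4.88% and 4.98%. Of 17 immediate early genes, a class to which Ccn1 belongs, AAC + DAPA had 5 below sham and 1, Klf6, above it, against 3.38% and 3.22% of all genes. In AAC 2 of the 17 were higher than in sham and 3 were lower, against 4.88% and 4.98%. Between AAC + DAPA and AAC, 0 were higher and 2 lower in AAC + DAPA, against 4.16% and 4.18%. The growth response factor Egr1 read 5.80 in AAC + DAPA, 7.04 in AAC and 8.53 in sham. Its order was the reverse of that of Ccn2, at a like size. Of 4 load markers 3 were higher in AAC + DAPA than in sham and 0 were lower, against 3.22% and 3.38% of all genes. In AAC 3 were higher than in sham and 1, the skeletal actin Acta1, was lower, against 4.88% and 4.98%. Against AAC, 2 of the 4 were higher in AAC + DAPA (Acta1 7.94-fold and Nppa 2.91-fold) and 0 were lower, beside 4.16% and 4.18% of all genes. Acta1 read 13.34 in AAC + DAPA, 10.35 in AAC and 11.72 in sham. Nppb, a further load marker, read 13.51 in AAC + DAPA, 13.79 in AAC and 12.97 in sham. Nppa, which encodes atrial natriuretic peptide, read 19.37 in AAC + DAPA, 17.83 in AAC and 14.30 in sham and is 1 of the 22 other genes with both steps past 1.5-fold. Myh7, the slow myosin chain, read 16.76 in AAC + DAPA, 16.65 in AAC and 14.37 in sham.

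Markers of the cells that make CCN proteins were set beside Ccn2, since in heart RNA more cells of a type and more RNA per cell cannot be told apart. Over all genes 3.38% were lower and 3.22% higher in AAC + DAPA against sham, and 4.98% and 4.88% in AAC against sham. In AAC + DAPA against AAC 4.18% were lower and 4.16% higher. These shares serve for each marker list here. Of 8 measured fibroblast markers 0 were higher in any comparison. Lum and Col3a1, 2 of 8, were lower than sham in AAC + DAPA and in AAC alike. Against AAC 1, Tcf21, was lower in AAC + DAPA. Col3a1 was 3.10-fold lower in AAC + DAPA than in sham. The fibroblast median was −0.35 for AAC + DAPA against sham and −0.38 for AAC against sham. Their summed level was 17.98 in AAC + DAPA, 18.07 in AAC and 17.87 in sham (log2), which is nearly that of the proteoglycan Dcn alone (17.87 in AAC + DAPA, 17.97 in AAC and 17.68 in sham). Of 8 markers of activated fibroblasts 0 were higher and 1, Meox1, was lower in each comparison, with summed levels of 10.03 in AAC + DAPA, 10.14 in AAC and 10.09 in sham, which are nearly those of Postn alone. The part of cell numbers in the values of Ccn2 was not tested. Endothelial markers summed to 14.49 in AAC + DAPA, 14.70 in AAC and 14.77 in sham, and cardiomyocyte markers to 22.09 in AAC + DAPA, 22.02 in AAC and 22.11 in sham. Smooth muscle markers summed to 12.40 in AAC + DAPA, 11.07 in AAC and 15.29 in sham, which was carried by Acta2, 1 of 7 markers. Myh11 went the other way against sham, at 5.28 in AAC + DAPA, 5.56 in AAC and 4.65 in sham. It was 1.55-fold above sham in AAC + DAPA and 1.88-fold in AAC. The other 5 markers stayed within 1.5-fold. Of 5 atrial markers Nppa alone passed 1.5-fold, and 4 of 5 lay above AAC in AAC + DAPA by any amount, with a median of 0.27. Of all 19505 genes 7158 stood 0.01 or more above AAC in AAC + DAPA. Myl4 read 7.40 in AAC + DAPA, 7.13 in AAC and 7.13 in sham, Bmp10 4.17 in AAC + DAPA, 3.89 in AAC and 3.82 in sham, and Myl7 3.30 in AAC + DAPA, 3.30 in AAC and 3.54 in sham. Of 8 macrophage markers 6 were lower in AAC + DAPA relative to AAC, against 4.18% of all genes. In AAC 5 of 8 were higher relative to sham, against 4.88%. Macrophage sums were 12.72 in AAC + DAPA, 13.95 in AAC and 12.69 in sham. In AAC + DAPA against sham 1 macrophage marker was higher and 1 lower, against 3.22% and 3.38%. Of 3 measured red blood cell markers 2 were higher in AAC relative to sham and lower in AAC + DAPA relative to AAC, with sums of 9.37 in AAC + DAPA, 12.09 in AAC and 8.63 in sham. Alas2, a heme synthesis enzyme, read 8.63 in AAC + DAPA, 11.92 in AAC and 7.63 in sham, and was 19.6-fold above sham in AAC. Itga6 and Sdc4 were high on the same array, and Lats2 and Stk4 were low on it. The part of these cells in their values was not tested.

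**Figure D4:**
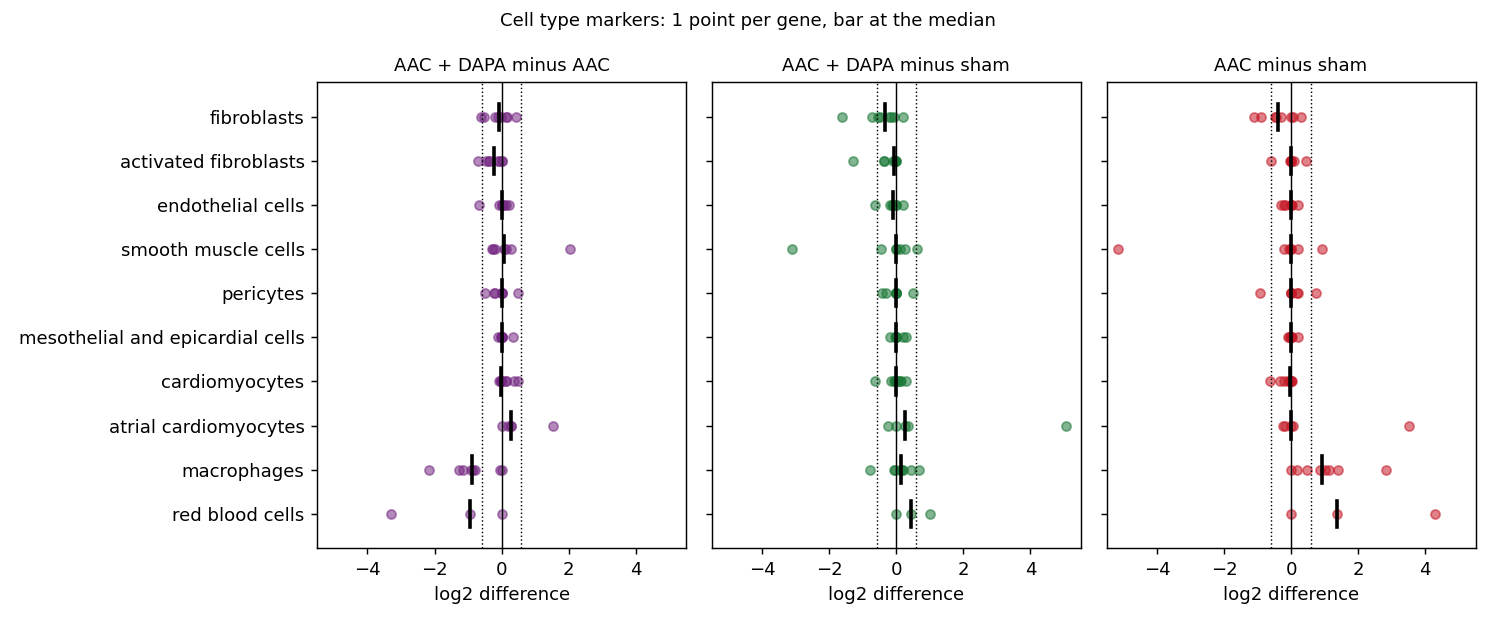
Log2 differences of cell type markers, with 1 point per gene, a black bar at the median of each list and dotted lines at 1.5-fold, for AAC + DAPA minus AAC, AAC + DAPA minus sham and AAC minus sham from left to right. Fibroblast medians lie at or below 0 in all 3 panels, and macrophage markers lie to the left in the first panel (median −0.88) and to the right in the last (median 0.93).

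The genes most like Ccn2 over the 3 arrays were sought among 10195 genes above the median level, by the Euclidean distance between log2 values centred over the arrays. The nearest was Txnip, an inhibitor of thioredoxin and of glucose uptake, at a distance of 0.11, with 17.95 in AAC + DAPA, 16.25 in AAC and 15.45 in sham. Then came Xaf1 (0.32), Klhl38 (0.45), Gnao1 (0.50) and Inmt (0.52). For Amotl2 the nearest were Macrod2 (0.03), Abcb1a, Pcdh7, Bcap29 and Zfp414, all within 0.05. With only 3 arrays many genes come close to a small profile such as that of Amotl2, and none of the 22 listed YAP and TAZ targets stood among these 10 neighbours.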

How the data were processed

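The authors isolated total RNA from mouse hearts and hybridized biotin-labelled cRNA to Affymetrix arrays, 1 per group. The deposited values are log2 expression values, 1 per probe set and array, normalized by the authors before deposit. Affymetrix Expression Console is named in the submitters' processing notes. For normalization the methods point to an Agilent protocol, and the summary and normalization algorithms are not given in the sources used here. The probe IDs name mouse genes, whereas the methods name a PrimeView array, which is made for human genes. Of 22206 probe sets 19572 name exactly 1 gene in the platform annotation. A gene is the mean over its probe sets, which gave 19505 genes. No column was left without a sample. With 1 array per group no test was run, so the number of arrays is what limits precision, and nothing tells biological from technical spread.

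Genes were called at 1.5-fold without a filter on low values. The 10 genes and all lists (YAP and TAZ targets, Hippo genes, CCN partners, TGF-β, SRF and early response genes, load and cell type markers) were chosen with earlier results of these data known. Named list genes are up to 4 per list with the largest differences past 1.5-fold in AAC + DAPA against AAC or in AAC against sham. Arhgef17, F3, Tgfb2, Fjx1, Foxf2, Amotl1, Tnik, Itgav, Postn, Dcn, Alas2, Myl4, Bmp10 and Myl7 were named after their values were seen. Mesothelial markers had 0 genes past 1.5-fold. Of 7 pericyte markers 1 was higher and 1 lower in AAC against sham alone, where 4.88% of all genes were higher and 4.98% lower. The calling code was tested on simulated arrays with known changes, which says nothing of the error of these arrays. Alternatives were array centring, quantile normalization, the highest probe set, a 2-fold threshold, filters on the level and leaving out the sex chromosomes. Python 3.11.15, numpy 2.4.6, pandas 2.3.3 and matplotlib 3.10.9 were used.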

Additional observations from a re-analysis of the deposited data

How the results depend on the processing

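The calls among the 10 genes were the same genes under array centring and quantile normalization. Centring moved a log2 difference of the 10 genes by at most 0.07 and quantile normalization by at most 0.04. The highest probe set, both filters on the level and leaving out the X and Y chromosomes also gave the same calls, but could not have changed them. Each of the 10 genes has 1 probe set, none lies on X or Y, and the called genes lie above both filters. With a threshold of 2-fold, 0 of the 10 genes were called in AAC against sham, 1 (Ccn2) in AAC + DAPA against AAC and 1 (Ccn2) in AAC + DAPA against sham. Over all genes 2.67%, 1.99% and 1.72% were called in these comparisons, in the same order. At that threshold 1 of 22 YAP and TAZ targets (Ankrd1) was higher in AAC than in sham, 1 (Ccn2) stood above AAC in AAC + DAPA, and 5 stood above sham in AAC + DAPA. Over all genes 1.43%, 0.831% and 0.872% were higher in these comparisons, in the same order. Lats2 and Amotl2 are thus called at 1.5-fold alone. Centring moved the split over all genes in AAC + DAPA against AAC to 1087 higher and 624 lower, against 811 and 815 as deposited. The TEAD motif stood in 5 of 5 genes with a promoter window over 300 bases and in 4 of 5 over 250. Of their 7 windows, 6 held it over 300 bases and 5 over 250. Of the recomputed list counts 312 stayed within 1.5 times and 24 did not. Outside the 2-fold threshold these included Vgll3, which lost its call under centring, and Stk4, which the filter at the median left out. No paired analysis was possible because each group has 1 array, and for the same reason no array could be left out within a group. Depth has no meaning for arrays, and the signal over background is not in the table, so low values such as those of Ccn4 and Ccn6 carry no detection call.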
